A study of Hydra vulgaris with 12 samples.

Results

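Predicted non-coding transcripts were followed through head regeneration in Hydra, a freshwater polyp that regrows a head after amputation. They are the entries of the deposited table whose identifiers begin with XR_, the RefSeq prefix for non-coding RNA models that were predicted by computation, and whose mean over the 12 libraries was at least 5 RPKM (read numbers per unit of transcript length and of mapped reads). There were 294 of them, out of 364 entries with that prefix and 17353 transcripts in all; the other 70 had lower means. The mean level alone chose them, and no direction or time of a change was set, while the level itself is a description. That mean covers all times, so a transcript almost absent at some times can enter through the others. XR_181873.1 did so through 4, 6 and 12 h. The choice is thus not fully independent of the changes counted below. A transcript expressed strongly at a single time can also reach the threshold, but only XR_181769.1 and XR_181974.1 would have had a mean under 5 RPKM without their highest time. XR_181769.1 is counted among the rises at 48 h below.

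All animals were of Hydra strain 105, which the labels list under Hydra vulgaris and H. magnipapillata, and no genetic alteration or added agent is named. Each library was made from 50 to 100 pooled animals that carried a young bud and had gone 1 day without food. The body was cut across between regions R1 and R2 of the trunk, and RNA was taken from R2 and R3 together at 0, 2, 4, 6, 12 and 48 h, with 2 libraries at each time. No uncut animals kept for the same times were among the samples, so an effect of the cut cannot be told apart from one of the time the tissue was kept.

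Long non-coding RNAs are transcribed and often spliced and polyadenylated like messenger RNAs, but carry no recognised long reading frame. Some act in chromatin regulation, as scaffolds for proteins or as precursors of small RNAs, and for many no function is known. The prefix records a prediction: a model can be a fragment of an unannotated messenger RNA or its untranslated end. The libraries went through poly(A) selection, so non-coding RNAs without a poly(A) tail were largely outside the measurement. Neither the table nor the RefSeq gene list used for names paired any of the 294 identifiers with a gene (0 matched), so each transcript is given by identifier only and no role is stated. Cell types could not be checked by markers for the same reason. Since the tissue was sampled in bulk, fewer cells of a type and less RNA per cell cannot be told apart.

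The predicted non-coding transcripts had higher levels than predicted mRNAs chosen by the same threshold. Their median mean level was 74.7 RPKM, with quartiles of 25.8 and 246 and a range of 5.68 to 19853. The 11123 predicted mRNAs with a mean of at least 5 RPKM had a median of 25.3. Means of at least 1000 RPKM were reached by 25 of the 294 (8.50%) and by 199 of those mRNAs (1.79%). Of all entries with each prefix, 80.8% of the non-coding ones and 65.5% of the mRNAs reached the threshold. Just above it lay XR_181744.1, with a mean of 5.68 RPKM, and XR_181974.1, with 5.98. Just below lay XR_181756.1, with 4.95, and XR_181949.1, with 4.92.

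The 294 transcripts held between 10.0% and 14.0% of all RPKM in a library. In order of time, the replicate pairs had 10.0% and 10.2%, 12.1% and 10.8%, 11.2% and 10.8%, 10.5% and 10.6%, 14.0% and 13.7%, then 12.0% and 12.4%. Both 12 h libraries lay above every other library. The 5 transcripts with the highest means supplied 7.82% and 7.71% of all RPKM at 12 h, against 4.54% and 4.50% at 0 h. A non-coding prediction was the most abundant transcript of the library in 6 of the 12 libraries: XR_181676.1 at 0 h, XR_181677.1 at 2 h and XR_181933.1 at 48 h. At 4, 6 and 12 h it was a predicted mRNA, XM_002168126.2.

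**Figure D1:**
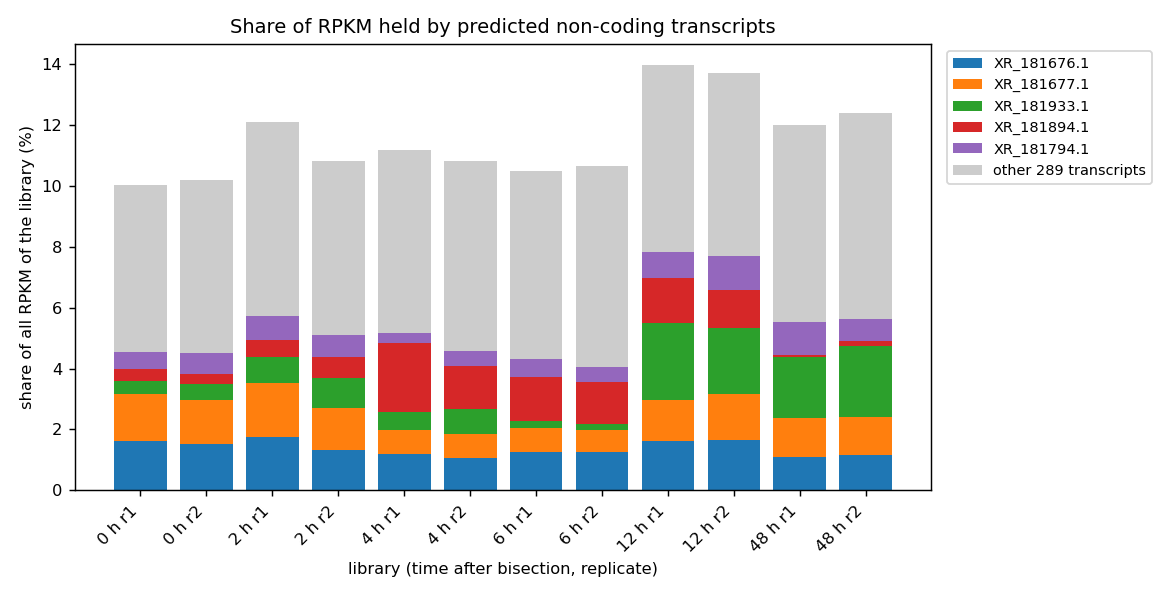
Share of each library's summed RPKM held by the 294 predicted non-coding transcripts, in percent, for each of the 12 libraries in order of time; coloured parts of a bar are the 5 with the highest means and grey is the rest. The whole group ranges from 10.0% to 14.0%, and both 12 h libraries are highest.

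The libraries differed in how closely replicates matched. The SD of the log2 difference between the 2 libraries of a time, over the 294 transcripts, was widest at 48 h (1.21), followed by 0 h (0.916), 12 h (0.819), 2 h (0.696) and 6 h (0.457), and narrowest at 4 h (0.403). The second libraries of 0 h and 48 h stood apart at low levels. In 0 h replicate 2, 11 of the 294 were listed at 0, all of which had between 1.51 and 19.5 RPKM in replicate 1. In 48 h replicate 2, 17 were listed at 0, and 16 of those had between 2.06 and 30.8 RPKM in replicate 1. The other libraries listed 0 to 3 at 0. Counts of calls are therefore given below also for a fit that keeps only replicate 1 of 0 h and 48 h. That fit was added once the data had been seen, and assumes that a lone library varies like the other times. Its counts are given without the shares of all transcripts, so they show only how the number of calls among the 294 moves. At the other end, 264 of the 294 had at least 1 RPKM in every library.

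Change was tested in limma on log2(RPKM + 1) over the 14283 transcripts that had 1 RPKM or more in at least 2 libraries, which included all 294. A transcript is said to have risen or fallen where limma's Benjamini-Hochberg adjusted p was under 0.05 with a log2 fold change of 1 or more in size. All log2 fold changes below are on that scale and are smaller than those of RPKM itself for low transcripts. By limma's F-test over the 5 comparisons with 0 h, 155 of the 294 (52.7%) changed at some time, against 41.1% of all transcripts tested and 47.4% of the predicted mRNAs with a mean of at least 5 RPKM. The gap to those mRNAs depends on the settings. It was 42.2% against 41.1% without a filter, and 53.1% against 39.8% with libraries scaled by their median ratio. The ratio of the highest to the lowest time mean had a median of 2.74 in the 294 and 2.14 in those mRNAs. It was under 2 in 88 of the 294 and at least 10 in 28.

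The 155 transcripts were spread over the time course in where they were highest. The time with the highest mean was 0 h for 38 transcripts, 2 h for 17, 4 h for 13, 6 h for 28, 12 h for 27 and 48 h for 32. Of the 5277 predicted mRNAs that passed the same test and threshold, 43.3% were highest at 0 h, against 24.5% of the 155. The difference was not tested. The mRNA share was not worked out under another scaling, so whether the gap depends on the scaling is not known. With libraries scaled by their median ratio, 26 of the 155 were highest at 0 h and 39 at 48 h, so the order of those times depends on the scaling. In 96 of the 155, both replicates placed the maximum at the same time.

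**Figure D2:**
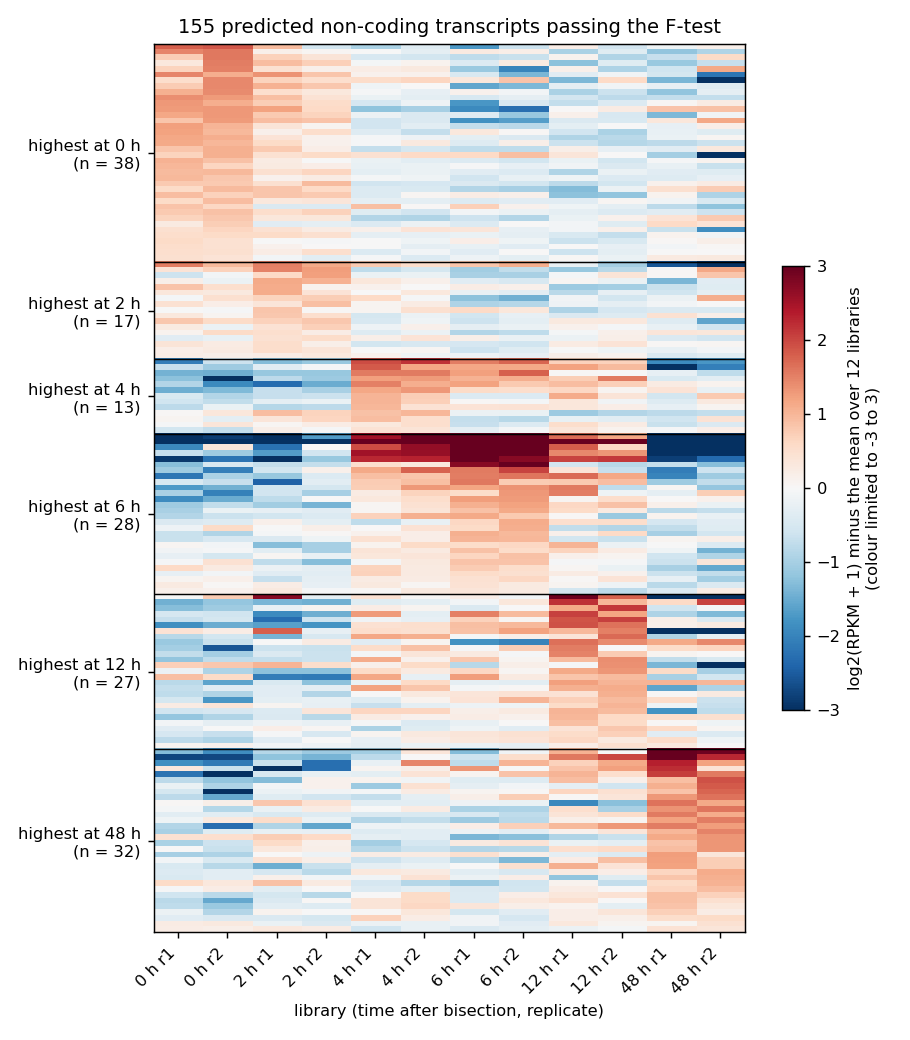
Level of each of the 155 predicted non-coding transcripts that passed limma's F-test, in each of the 12 libraries, as the difference in log2(RPKM + 1) from that transcript's mean over libraries; rows are ordered by the time of the highest mean. Blocks of rows peak at every time, with 38 at 0 h and 32 at 48 h.

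Among the most abundant, 2 transcripts kept a high level throughout. XR_181676.1, with the highest mean, had 22493 and 21263 RPKM at 0 h, 24237 and 18441 at 2 h, 18280 and 16390 at 4 h, 18642 and 19260 at 6 h, 24226 and 24215 at 12 h, and 14569 and 16219 at 48 h. Both 48 h libraries lay below all others, but no comparison of it passed (48 h against 0 h, log2 fold change -0.51, SE 0.18, adjusted p from limma = 0.0543). Its adjusted p in limma's F-test was 0.0906. With libraries scaled by their median ratio the change from 0 h to 48 h was -0.098. From 12 to 48 h it was -0.66 (adjusted p from limma = 0.0504), and -0.60 with that scaling. XR_181677.1 had 21880 and 19943 RPKM at 0 h, 24436 and 19152 at 2 h, 11442 and 12152 at 4 h, 11955 and 11082 at 6 h, 20087 and 22535 at 12 h, and 17205 and 17577 at 48 h. Its 4 h and 6 h libraries lay below all the others. It passed limma's F-test (adjusted p = 0.00632), while its log2 fold change from 0 h was -0.82 at 4 h and -0.86 at 6 h, short of the size required of a fall. Both values were smaller in size, at -0.51 and -0.53, with libraries scaled by their median ratio.

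Of the other abundant transcripts, XR_181933.1 was above 0 h at 48 h and XR_181894.1 below it. XR_181933.1 had 5522 and 7473 RPKM at 0 h, 11905 and 14081 at 2 h, 9374 and 12720 at 4 h, 3385 and 2996 at 6 h, 37364 and 31842 at 12 h, and 26357 and 32607 at 48 h. It was lowest in both 6 h libraries and highest at 12 and 48 h, with no overlap between those groups and 0 h. Its log2 fold change from 0 h was -1.01 at 6 h (SE 0.23, adjusted p from limma = 0.0135), 2.42 at 12 h (adjusted p = 3.45e-04) and 2.19 at 48 h (adjusted p = 4.47e-04). The call at 6 h is lost with median-ratio scaling (-0.68), without a filter (adjusted p = 0.0571), without 0 h replicate 2 (adjusted p = 0.0973) or either 6 h library (adjusted p = 0.0517 and 0.0999), and with replicate 1 alone at 0 h and 48 h (adjusted p = 0.0625). XR_181894.1 had 5945 and 4583 RPKM at 0 h, 7528 and 9401 at 2 h, 33989 and 21311 at 4 h, 21386 and 21191 at 6 h, 22049 and 18478 at 12 h, and 998 and 2293 at 48 h. Its 4, 6 and 12 h libraries all lay above those of 0 and 2 h, and its 48 h libraries below them. The log2 fold change from 0 h was 2.37 at 4 h (SE 0.37, adjusted p from limma = 0.00362) and -1.79 at 48 h (SE 0.37, adjusted p = 0.00674). The latter was -1.19 without 48 h replicate 1 and -2.39 without replicate 2, and its call is lost with only the 4 libraries compared (adjusted p = 0.0661). XR_181794.1, the fifth by mean, stayed between 4979 and 16802 RPKM and was not called in any comparison as deposited, though it passed the F-test (adjusted p from limma = 0.0339). Its log2 fold change from 0 h to 12 h was 0.79 (adjusted p from limma = 0.0491), short of the size required of a rise. With libraries scaled by their median ratio that change was 1.15, above that size.

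Identifiers XR_181676.1, XR_181677.1 and XR_181678.1 are consecutive in number and rank first, second and seventh by mean among the 294; this was seen after their values were known. XR_181678.1 had 4862 and 5878 RPKM at 0 h, 10236 and 8806 at 2 h, 2152 and 2555 at 4 h, 1784 and 2198 at 6 h, 1678 and 2053 at 12 h, and 3763 and 8176 at 48 h. Its 4, 6 and 12 h libraries all lay below those of the other times. Between 2 and 4 h it fell by 2.02 log2 units (SE 0.32, adjusted p from limma = 0.00655). That call is lost without 2 h replicate 1 (adjusted p = 0.0523) or 4 h replicate 1 (adjusted p = 0.0635).

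**Figure D3:**
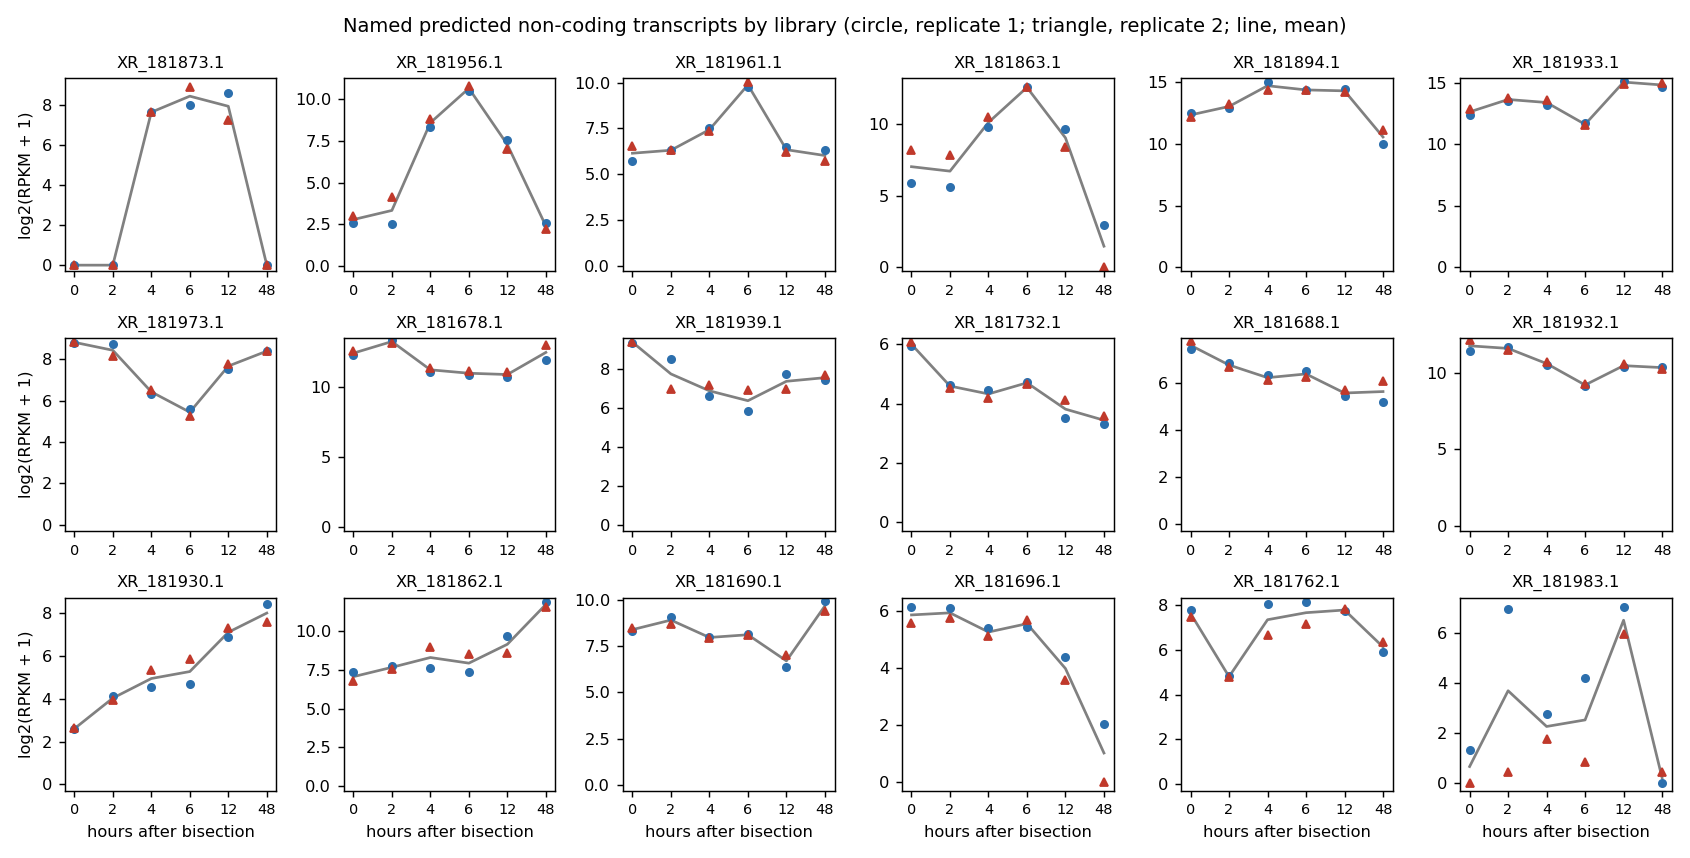
Level of named predicted non-coding transcripts, as log2(RPKM + 1), in each library against time after the cut, with times evenly spaced; circles are replicate 1, triangles replicate 2, and lines join the means of the log2 values. XR_181956.1 peaks at 6 h in both replicates (1441 and 1806 RPKM), XR_181973.1 is lowest there (47.8 and 37.5 RPKM), and XR_181930.1 is highest at 48 h.

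At 2 h few transcripts were called: 0 of the 294 rose and 2 fell, against 0.133% and 0.112% of all transcripts tested. An unadjusted p below 0.05 was reached by 70 of the 294 (23.8%), 34 of them higher at 2 h, and by 2293 of the 14283 tested (16.1%), 654 of them higher. XR_181762.1 had 219 and 176 RPKM at 0 h, 27.3 and 26.3 at 2 h, 264 and 98.7 at 4 h, 283 and 143 at 6 h, 211 and 226 at 12 h, and 59.4 and 80.0 at 48 h. Its 2 h libraries lay below all others, a fall of 2.83 on the log2 scale from 0 h (SE 0.44, adjusted p from limma = 0.0452), followed by a rise of 2.55 from 2 to 4 h (adjusted p = 0.00929). The rise is not called without either 2 h library or without 4 h replicate 1 (adjusted p = 0.0513). XR_181732.1 had 60.2 and 66.3 RPKM at 0 h, 24.0 and 22.3 at 2 h, and 8.83 and 11.0 at 48 h, with every later library below both 0 h libraries. It fell by 1.41 by 2 h (SE 0.22, adjusted p from limma = 0.0477) and by 2.19 by 12 h (adjusted p = 4.47e-04). Both 2 h calls lie close to the threshold, and neither holds with libraries scaled by their median ratio, where 0 of the 294 were called. The count of 2 became 7 without 0 h replicate 1 and 6 without either 48 h library. It became 1 without any one of the 4 h or 12 h libraries and 0 without 0 h replicate 2 or any one of the 2 h or 6 h libraries. It was 0 with replicate 1 alone at 0 h and 48 h.

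By 4 h, 42 of the 294 (14.3%) had risen from 0 h and 25 (8.50%) had fallen, against 4.55% and 7.41% of all transcripts tested. Rises were thus a larger share here than in the whole table, and as deposited falls differed by less; among predicted mRNAs with a mean of at least 5 RPKM the shares were 5.23% and 8.19%. In both kinds of transcript rises were commoner where the mean over all libraries was high. That mean includes the times of the rise, so the link is partly built in. XR_181956.1, for example, had 5.05 and 6.93 RPKM at 0 h and a mean of 366. Rises took 22.4% of the 125 non-coding transcripts with a mean of at least 100 RPKM, and 13.1% of mRNAs at that level. Between 20 and 100 RPKM the shares were 9.82% and 5.49%, and between 5 and 20 RPKM 5.26% and 1.94%. The median log2 fold change was 0.02 over the 294 and -0.28 over all tested, and scaling by the median ratio moved these to 0.33 and -0.01. The split of calls moved with it, to 58 rises and 12 falls (19.7% and 4.08%, against 6.78% and 2.54% of all tested). Quantile normalization gave 15.6% and 8.16%, against 5.86% and 3.93%, so the share of falls relative to the table depends on the scaling. With replicate 1 alone at 0 h and 48 h there were 37 rises among 62 calls. Leaving out 0 h replicate 2 reduced the 67 calls to 40, leaving out 4 h replicate 1 to 43 and leaving out 4 h replicate 2 to 39.

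XR_181956.1 rose from near the threshold to a high level within 4 to 6 h. It had 5.05 and 6.93 RPKM at 0 h, 4.77 and 16.7 at 2 h, 328 and 453 at 4 h, 1441 and 1806 at 6 h, 186 and 129 at 12 h, and 5.07 and 3.64 at 48 h. All 4, 6 and 12 h libraries lay above every library of the other times, and the 48 h libraries overlapped those of 0 h. Its log2 fold change from 0 h was 5.80 at 4 h (SE 0.46, adjusted p from limma = 1.92e-04) and 7.86 at 6 h (adjusted p = 3.31e-05). XR_181873.1 was below 0.001 RPKM in both libraries of 0, 2 and 48 h, and had 196 and 197 RPKM at 4 h, 252 and 465 at 6 h, and 386 and 151 at 12 h. Expressed and near-zero libraries did not overlap. Its fitted rise from 0 h to 4 h, 7.62 on the log2 scale (adjusted p from limma = 3.96e-05), depends on the pseudocount and is 10.94 with 0.1 and 5.33 with 5 RPKM, and its replicates agree near 0 almost by construction.

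The largest falls at 4 h were those of XR_181939.1 and XR_181973.1. XR_181973.1 had 443 and 456 RPKM at 0 h, 423 and 279 at 2 h, 78.3 and 91.4 at 4 h, 47.8 and 37.5 at 6 h, 186 and 219 at 12 h, and 332 and 336 at 48 h. Its 4 and 6 h libraries were the lowest, and its 12 and 48 h libraries lay between those and 0 h. The log2 fold change from 0 h was -2.39 at 4 h (SE 0.21, adjusted p from limma = 2.93e-04) and -3.38 at 6 h (adjusted p = 3.36e-05), and from 6 to 12 h it rose by 2.23 (adjusted p = 0.0015). XR_181939.1 had 654 and 678 RPKM at 0 h, 362 and 127 at 2 h, 96.1 and 143 at 4 h, 56.1 and 120 at 6 h, 216 and 126 at 12 h, and 170 and 207 at 48 h. Both 0 h libraries lay above all others. It fell by 2.50 at 4 h (SE 0.51, adjusted p from limma = 0.0100), a call lost without 0 h replicate 2 (adjusted p = 0.0588) or 4 h replicate 1 (adjusted p = 0.0723), and by 3.00 at 6 h (adjusted p = 0.00391).

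At 6 h, 44 of the 294 (15.0%) had risen from 0 h and 35 (11.9%) had fallen, against 5.34% and 8.92% of all tested. The predicted mRNAs with a mean of at least 5 RPKM gave 6.04% and 9.88%. With median-ratio scaling the split was 53 rises and 18 falls, or 18.0% and 6.12% against 7.68% and 3.16% of all tested. Replicate 1 alone at 0 h and 48 h gave 40 rises among 70 calls. The count of 79 calls became 51 with 0 h replicate 2 left out and 50 with 6 h replicate 2 left out. The largest rises were again those of XR_181873.1 and XR_181956.1, and the largest falls those of XR_181973.1 and XR_181939.1. XR_181863.1, one of 6 transcripts that both rose and fell from 0 h, had its maximum at 6 h: 58.1 and 284 RPKM at 0 h, 47.1 and 226 at 2 h, 878 and 1414 at 4 h, 6100 and 6091 at 6 h, 801 and 345 at 12 h, and 6.46 and 0 at 48 h. Its 0 h replicates differed several-fold, yet all 4, 6 and 12 h libraries lay above them and both 48 h libraries below. The log2 fold change from 0 h was 5.55 at 6 h (SE 1.07, adjusted p from limma = 0.00691) and -5.57 at 48 h (SE 1.07, adjusted p = 0.00476). Without 0 h replicate 1 the rise at 6 h was 4.42, and without replicate 2 it was 6.69. The fall at 48 h rests on the second 0 h and 48 h libraries in part: with replicate 1 alone at those times it was -2.98 (adjusted p from limma = 0.0667), and with only the 4 libraries compared its adjusted p was 0.0545.

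**Figure D4:**
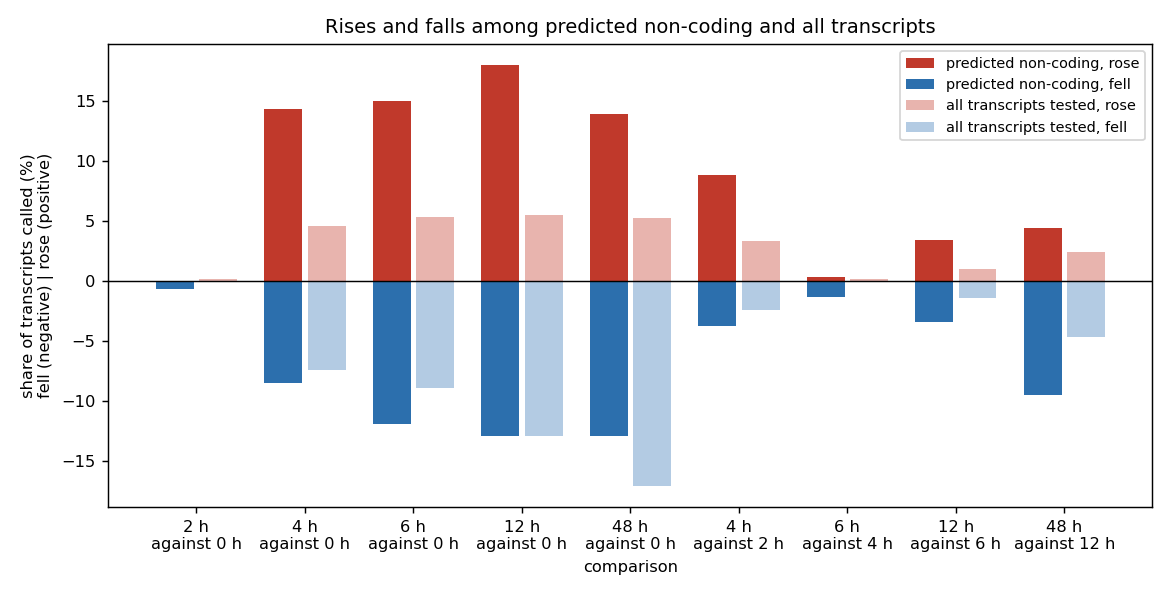
Percentage of the 294 predicted non-coding transcripts and of all transcripts tested that rose or fell in each comparison, by limma's adjusted p under 0.05 and a log2 fold change of at least 1 in size; rises are drawn upwards and falls downwards. Against 0 h, from 4 h on, rises reach 13.9% to 18.0% of the 294 and 4.55% to 5.51% of all tested.

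At 12 h, 53 of the 294 (18.0%) had risen from 0 h and 38 (12.9%) had fallen, against 5.51% and 12.9% of all tested. As deposited, the share that fell was thus that of the table, and the share that rose was above it. With median-ratio scaling there were 68 rises and 16 falls (23.1% and 5.44%, against 8.89% and 5.52% of all tested). Quantile normalization gave 19.7% and 9.52%, against 7.86% and 7.02%. At means of at least 100 RPKM, which again include the times of any rise, 25.6% of the non-coding transcripts and 12.8% of the mRNAs had risen. The count of 91 calls became 60 without 0 h replicate 2, and 46 of the 82 calls with the first libraries of 0 h and 48 h only were rises. XR_181688.1 had 174 and 221 RPKM at 0 h, 117 and 102 at 2 h, 80.0 and 69.6 at 4 h, 90.0 and 77.2 at 6 h, 42.4 and 52.1 at 12 h, and 35.6 and 67.5 at 48 h. Every later library lay below both at 0 h, and the fall by 12 h was 2.04 on the log2 scale (SE 0.27, adjusted p from limma = 0.00131). XR_181983.1, a rise of 5.85 at 12 h (SE 1.81, adjusted p from limma = 0.0374), had 1.51 and 0 RPKM at 0 h, 123 and 0.348 at 2 h, and 131 and 61.8 at 12 h. Its 2 h replicates disagree, and the fitted rise was 7.81 with a pseudocount of 0.1 and 4.06 with 5 RPKM. The call is lost without either 0 h library (adjusted p = 0.0789 and 0.161) or either 12 h library (adjusted p = 0.145 and 0.0866), without either 4 h library (adjusted p = 0.0557 and 0.0556), with replicate 1 alone at 0 h and 48 h (adjusted p = 0.147), without a filter (adjusted p = 0.0869) and with library weights (adjusted p = 0.13).

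By 48 h, 41 of the 294 (13.9%) had risen from 0 h and 38 (12.9%) had fallen, against 5.29% and 17.1% of all tested. As deposited, falls were a smaller share than in the table, and among predicted mRNAs with a mean of at least 5 RPKM they were 18.1%. That order depends on the scaling: falls took 7.82% of the 294 and 8.21% of all tested with median-ratio scaling, and 10.2% and 8.22% with quantile normalization. Rises took 21.8% and 9.37%, then 18.4% and 8.67%. The median log2 fold change was -0.12 over the 294 and -0.39 over all tested. Median-ratio scaling gave 64 rises and 23 falls, and the first libraries alone gave 35 rises among 71 calls. XR_181930.1 was lowest at 0 h and highest at 48 h: 5.01 and 5.12 RPKM at 0 h, 16.4 and 14.4 at 2 h, 22.5 and 39.8 at 4 h, 25.1 and 56.8 at 6 h, 119 and 160 at 12 h, and 345 and 193 at 48 h. Neighbouring times overlapped only at 4 and 6 h. The log2 fold change at 48 h was 5.42 (SE 0.42, adjusted p from limma = 1.87e-04).

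XR_181862.1 and XR_181696.1 had the largest rise and fall called at 48 h after XR_181930.1 and XR_181863.1. XR_181862.1 had 161 and 109 RPKM at 0 h, 219 and 188 at 2 h, 193 and 514 at 4 h, 161 and 372 at 6 h, 826 and 394 at 12 h, and 3811 and 3033 at 48 h. Both 48 h libraries lay above all others, and the log2 fold change from 0 h was 4.67 (SE 0.54, adjusted p from limma = 6.36e-04). XR_181696.1 had 70.0 and 46.6 RPKM at 0 h, 68.5 and 52.8 at 2 h, 41.2 and 33.9 at 4 h, 41.9 and 50.4 at 6 h, 19.9 and 10.9 at 12 h, and 3.12 and 0 at 48 h. Its 12 h libraries lay below all earlier ones and its 48 h libraries lower still, with a log2 fold change of -4.84 from 0 h (SE 0.57, adjusted p from limma = 6.63e-04). With a library at 0 the size of that fall depends on the pseudocount (-6.66 with 0.1 and -3.29 with 5 RPKM) and on the 48 h library kept (-3.82 without replicate 2 and -5.86 without replicate 1), while the call held.

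The comparisons with 0 h share the 0 h libraries, so their calls are not independent of each other. At least one of them was called for 146 of the 294 (49.7%), against 35.3% of all tested. Rises at any time took 84 (28.6%, against 10.7%) and falls 68 (23.1%, against 24.9%), with 6 in both (2.04%, against 0.343%). At 4, 6 and 12 h alike, 23 had risen (7.82%, against 2.68%), of which 12 were still above 0 h at 48 h by the same rule (4.08%, against 1.12%). At those times 17 had fallen (5.78%, against 4.37%), of which 10 were also called at 48 h (3.40%, against 3.02%). Rises called at 48 h with no earlier rise numbered 13 (4.42%, against 2.45%). Falls called at 48 h with no earlier fall numbered 15 (5.10%, against 8.01%). Earlier calls in the other direction were not set aside. Among those rises, XR_181690.1 and XR_181751.1 had fallen at an earlier time. Among those falls, XR_181837.1, XR_181863.1 and XR_181894.1 had risen at an earlier time.

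**Figure D5:**
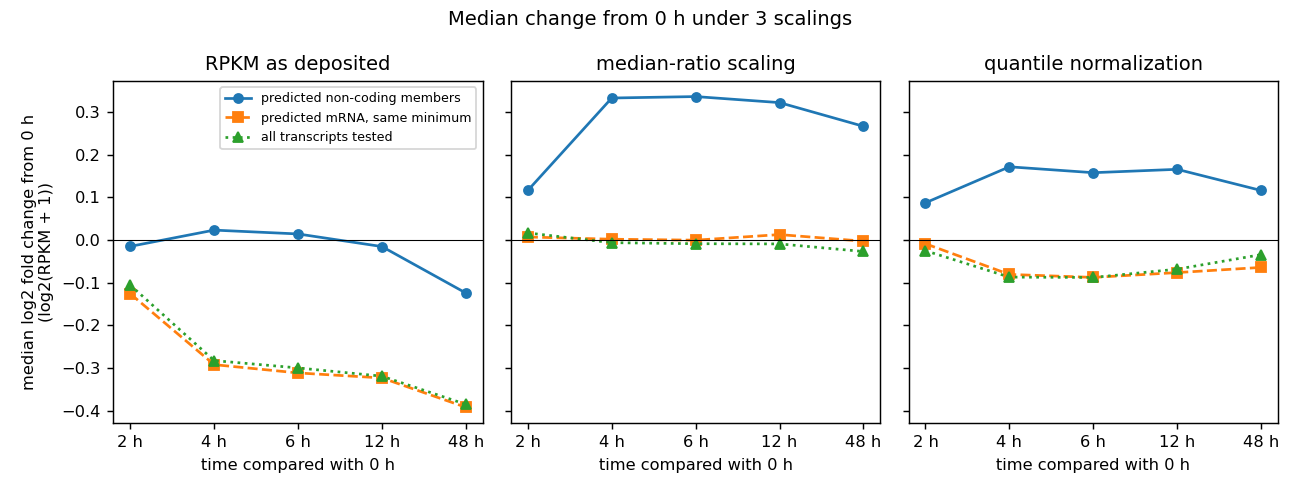
Median log2 fold change from 0 h, on log2(RPKM + 1), of the 294 predicted non-coding transcripts, of predicted mRNAs with a mean of at least 5 RPKM and of all transcripts tested, at each later time and under 3 scalings of the libraries. As deposited the 294 stay between -0.12 and 0.02 while all tested reach -0.39; with median-ratio scaling the 294 lie between 0.12 and 0.34 and all tested near 0.

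The 4 h libraries were also set against those of 2 h, a comparison that does not use the level at 0 h. Between these times 26 of the 294 rose (8.84%) and 11 fell (3.74%), against 3.33% and 2.42% of all tested. With median-ratio scaling the split was 32 and 5 (10.9% and 1.7%), against 4.47% and 1.37% of all tested. With quantile normalization it was 26 and 20 (8.84% and 6.8%), against 3.77% and 2.22% of all tested. Leaving out 2 h replicate 1 reduced the 37 calls to 16, leaving out 4 h replicate 1 to 13 and leaving out 4 h replicate 2 to 22. XR_181873.1 and XR_181956.1 again rose most, the latter by 5.26 on the log2 scale (adjusted p from limma = 5.77e-04), and XR_181973.1 fell by 2.01 (adjusted p = 0.00101).

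From 4 to 6 h few were called: 1 rose and 4 fell (0.34% and 1.36%), against 0.133% and 0.077% of all tested. XR_181961.1 had 52.5 and 92.7 RPKM at 0 h, 78.5 and 78.1 at 2 h, 184 and 160 at 4 h, 856 and 1037 at 6 h, 88.4 and 72.4 at 12 h, and 77.6 and 52.6 at 48 h. Its 6 h libraries lay above all others. It rose by 2.45 from 4 to 6 h (SE 0.27, adjusted p from limma = 0.0113) and fell by 3.54 from 6 to 12 h (adjusted p = 5.77e-04). XR_181933.1 fell by 1.78 from 4 to 6 h (adjusted p = 0.0263, and 0.116 without a filter), and XR_181932.1 by 1.39 (adjusted p = 0.0493). The call of XR_181932.1 is lost in 16 alternatives, among them both other scalings (adjusted p from limma = 0.0657 and 0.0545), no filter, no variance trend (adjusted p = 0.13) and leaving out any one library of 2, 4, 6, 12 or 48 h. XR_181932.1 had 1468 and 1619 RPKM at 4 h and 548 and 627 at 6 h, without overlap. Without any one of the 4 h or 6 h libraries, 0 of the 294 were called.

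From 6 to 12 h 10 rose and 10 fell (3.40% each), against 0.987% and 1.44% of all tested. XR_181933.1 rose by 3.44 log2 units (SE 0.23, adjusted p from limma = 2.18e-04), from 3385 and 2996 RPKM to 37364 and 31842. XR_181956.1 fell by 3.37 (SE 0.46, adjusted p from limma = 0.00819), a call lost without 12 h replicate 2 (adjusted p = 0.0505) or either 6 h library (adjusted p = 0.0634 and 0.0823). The count of 20 became 12 and 7 without 12 h replicates 1 and 2, 5 and 4 without 6 h replicates 1 and 2, and 31 without either 48 h library. With replicate 1 alone at 0 h and 48 h it was 34.

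From 12 to 48 h 13 rose (4.42%) and 28 fell (9.52%), against 2.45% and 4.67% of all tested. XR_181690.1 had 320 and 351 RPKM at 0 h, 547 and 420 at 2 h, 250 and 249 at 4 h, 282 and 272 at 6 h, 81.6 and 131 at 12 h, and 971 and 685 at 48 h. Its 12 h libraries lay below and its 48 h libraries above all others, a rise of 2.97 (SE 0.24, adjusted p from limma = 3.65e-04). XR_181862.1 rose by 2.57 (SE 0.54, adjusted p from limma = 0.0185), a call lost in 5 alternatives: library weights (adjusted p = 0.28), no 12 h replicate 2 (0.106), only the 4 libraries compared (0.0666), replicate 1 alone at 0 h and 48 h (0.056), and no filter (0.0539). XR_181863.1 fell by 7.59 (SE 1.07, adjusted p from limma = 0.00357), to 6.46 and 0 RPKM. The call held, but the size ran from -9.34 with a pseudocount of 0.1 to -6.13 with 5 RPKM, and was -6.14 without 48 h replicate 2 and -9.04 without replicate 1. XR_181873.1 returned below 0.001 RPKM. The 41 calls became 27 when 12 h replicate 2 was left out and 71 when 48 h replicate 1 was. They became 36 with replicate 1 alone at 0 h and 48 h.

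Of the transcripts that rose from 0 h at 4, 6 or 12 h, 20 fell from 12 to 48 h (6.80%, against 2.04% of all tested). At 48 h, 3 of the 20 were below 0 h by the same rule (XR_181837.1, XR_181863.1 and XR_181894.1) and 1 was still above it (XR_181943.1). XR_181837.1, named for this pattern after its values were seen, had 25.7 and 19.8 RPKM at 0 h, 12.5 and 27.9 at 2 h, 248 and 264 at 4 h, 465 and 497 at 6 h, 117 and 107 at 12 h, and was listed at 0 in both 48 h libraries. The 4, 6 and 12 h groups overlapped neither each other nor any other time. The opposite order, a fall by 4, 6 or 12 h and a rise from 12 to 48 h, was seen in 6 (2.04%, against 1.25%), of which XR_181690.1 and XR_181678.1 are described above.

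Some abundant transcripts showed little change. Among those with an adjusted p above 0.5 in limma's F-test, XR_181882.1 had the highest mean, with 527 and 357 RPKM at 0 h, 424 and 401 at 2 h, 417 and 414 at 4 h, 403 and 451 at 6 h, 374 and 442 at 12 h, and 285 and 420 at 48 h (adjusted p = 0.763). Every later time overlapped the range of 0 h, and the 48 h libraries held the lowest value. XR_181829.1 stayed between 182 and 449 RPKM (adjusted p from limma = 0.612), and XR_181960.1 between 100 and 322 (adjusted p = 0.849). The widest gap between replicates was at 12 h in XR_181829.1 and at 2 h in XR_181960.1. A test that misses the threshold does not show that a level was constant.

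Patterns were compared between members of the set by Pearson's r of log2(RPKM + 1) over the 12 libraries, as a description. The median over all 43071 pairs was 0.0066, and over the 228 pairs with consecutive identifier numbers it was 0.034. An r above 0.95 was found in 10 pairs, and 0 pairs exceeded 0.98. The most alike were XR_181873.1 and XR_181757.1 (0.976), XR_181670.1 and XR_053556.2 (0.976), and XR_181859.1 and XR_181865.1 (0.975). XR_181757.1, named for this reason, had 69.0 and 111 RPKM at 0 h, 61.2 and 234 at 2 h, 2480 and 2583 at 4 h, 4157 and 3431 at 6 h, 2110 and 2262 at 12 h, and 72.7 and 101 at 48 h. All its 4, 6 and 12 h libraries lay above all libraries of the other times, as did those of XR_181873.1 and XR_181956.1.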

How the data were processed

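The deposited table holds RPKM computed by the authors for 17353 transcripts in 12 libraries. Libraries were strand-specific, from RNA with integrity numbers above 9.0 and 2 rounds of poly(A) selection, with 13 to 15 PCR cycles and 50 bp single-end reads, per the labels' protocols. Per the submitters' processing notes, Bowtie 0.12.8 was used. For the build, the counting of reads and any further scaling, the sources used here name nothing. Reads of near-identical transcripts may be split among them. RPKM totals ran from 1330541 to 1535758. Values between 0 and 0.001 RPKM occur and show no steps of whole reads, so depth is unknown and no counting interval is given; an exact 0 is reported as listed.

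One limma 3.58.1 model (R 4.3.3), with 1 mean for each time, described log2(RPKM + 1) of 14283 transcripts in all 12 libraries, with a variance trend and 6 residual degrees of freedom; p-values are two-sided and Benjamini-Hochberg adjusted over all transcripts. The procedure was run on simulated data in which a transcript's spread was equal at all times. Changes there were seeded at 48 h only. Since replicate spread differed between times in the real libraries, that run does not show that the p-values hold for them. The 2 libraries of a time are separate pools by their labels, and whether pools shared a day is not given, so p-values cover the spread between these pools only. Groups came from the titles.

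Named transcripts are the 2 largest rises and 2 largest falls called in each comparison, the 5 highest means, the 3 highest means with an F-test adjusted p above 0.5, and 2 on either side of the 5 RPKM threshold; others are said to be chosen after their values were seen. The transcripts, rules and alternatives were chosen with earlier results of these data known. The alternatives were other pseudocounts (0.1 and 5), filters, scalings, membership thresholds, no variance trend, library weights, 4-library fits, a replicate block, and leaving out each library. Gene lists and sequences were not used, since no identifier among the 294 could be named.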

Additional observations from a re-analysis of the deposited data

How the results depend on the processing

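Alternatives gave 249 counts of called transcripts, of which 193 differed from the reported one by no more than 1.5 times. The 2 calls at 2 h against 0 h became 0 with replicate 1 alone at 0 and 48 h, median-ratio scaling, no filter, no variance trend, only the 4 libraries compared or a pseudocount of 0.1, 4 with quantile normalization and 6 with library weights. The 79 calls at 48 h against 0 h became 48 with the 4 libraries alone and 51 with weights. The 37 from 2 to 4 h became 23 without a filter, 57 with the 4 libraries and 57 with weights. The 5 from 4 to 6 h became 3 without a filter or with quantile normalization, 2 without a variance trend, 13 with the 4 libraries and 15 with weights. The 20 from 6 to 12 h became 34 with replicate 1 alone at 0 and 48 h, and the 41 from 12 to 48 h became 17 with the 4 libraries and 14 with weights. The cause was not tested. These counts, and those below with a library left out, are of the 294 only. They do not show whether calls among all transcripts moved alike. For the F-test, 52.7% of the 294 and 41.1% of all tested passed as reported. Without a filter the shares were 42.2% and 30.0%, and with weights 56.5% and 43.7%.

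Leaving out each library in turn gave 0 to 7 calls at 2 h, 39 to 74 at 4 h, 50 to 81 at 6 h, 60 to 101 at 12 h and 60 to 99 at 48 h against 0 h. For the steps it gave 13 to 45 from 2 to 4 h, 0 to 6 from 4 to 6 h, 4 to 31 from 6 to 12 h and 27 to 71 from 12 to 48 h; 124 to 194 transcripts passed the F-test. The 28 transcripts named by rule had 80 calls. Of these calls, 42 held in every alternative with all times fitted, 69 in the fit of 4 libraries, and 0 changed direction. XR_181949.1, just below the threshold, was among the 28. XR_181837.1 and XR_181757.1, named after their values were seen, were not. Correlations of replicate differences between times, a check for pairing by replicate number, ran from -0.0976 to 0.039 for all pairs of times but 4 and 6 h. For 4 and 6 h the value was 0.234, and whether those libraries shared a day is not given. A replicate block left 0 calls at 2 h against 0 h and 2 from 4 to 6 h. Unknown depth limits what a low or listed 0 value shows.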
